A study of Mus musculus with 2 samples.

Results

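The cytotoxic effector genes, 10 genes of cell killing, were followed across the annotated cell types of mouse colitis-associated colon tumors. The members were chosen by name, as a list: the granule proteases Gzma, Gzmb and Gzmk, the pore former Prf1, the cytokine gene Ifng, the granule membrane gene Nkg7, the receptor genes Klrk1, Klrd1 and Ncr1, and the death ligand gene Fasl. They are 10 of the 32291 rows of the expression table, and each was read in 11 annotated cell types and 2 libraries, with T cells also divided by whether a cell held a UMI of Cd8b1. A UMI, or unique molecular identifier, marks 1 captured mRNA molecule.

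Both libraries came from single-cell RNA sequencing (10x Genomics, 3′ tags) of colon tumors from AOM/DSS-treated mice. The animals were 6 to 10 weeks old at the first injection, received azoxymethane at 10 mg/kg ahead of the first and again ahead of the second cycle of dextran sulfate sodium in the drinking water, with cycles of 5 days each, at 2.5% in the first and second and at 2% in the third, and were killed on day 110. The library labelled Mir34a_F/F held floxed, undeleted Mir34a alleles, and the library labelled Mir34a_Mye_KO carried the same floxed alleles together with LysM-Cre, a Cre recombinase driven from a gene of macrophages, monocytes and granulocytes, so that T cells are not the cells targeted for deletion. Each library pooled 6 to 8 tumors from 3 mice. With 1 library per genotype there was no replicate check, so no p-value is given and every interval covers counting error only. Genotype cannot be told apart from any other difference between the pools.

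Cytotoxic lymphocytes, which are CD8 T cells, natural killer cells and some gamma-delta T cells, kill a target by releasing granules at the contact site. Perforin opens the target membrane, granzymes enter and cleave proteins inside, and Fas ligand signals death through the receptor Fas without granules. NKG2D (Klrk1), CD94 (Klrd1) and NKp46 (Ncr1) are surface receptors that tell such cells when to act, and interferon gamma carries the response to the surrounding tissue.

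The libraries differed in depth. The Mir34a_F/F library held 20312 cells with a median of 4787 UMIs, and the Mir34a_Mye_KO library 18571 cells with a median of 7716. T cells numbered 3088 and 2649 with medians of 3548 and 8043 UMIs. A level is therefore given as UMIs of the gene per 10000 UMIs in the same cell, averaged over cells and not scaled by transcript length, so that levels compare cell groups and not genes, and a share of cells with a UMI is given after each cell was thinned to 1000 UMIs, which left out 84 and 7 T cells and 627 and 160 epithelial cells. All 6 T cell markers (Cd3d, Cd3e, Cd3g, Trac, Trbc1, Trbc2) were highest in the annotated T cells of both libraries, and basophils were the annotated type whose markers were not all highest in their own cells (Ms4a2 in both libraries, Gata2 in the Mir34a_Mye_KO library). Markers of other types were present in T cells: those of epithelial cells (Epcam, Krt8, Krt18, Cdh1) summed to 20.9 and 11.5 UMIs per 10000, against 56.8 and 39.5 in epithelial cells. A total of 96 barcode sequences occurred in both libraries, with 21 and 18 of them in T cells. The primary Mir34a transcript, counted by 3′ tags that need not lie in the deleted stretch, had 133 UMIs in macrophages of the Mir34a_F/F library (0.0723 per 10000) and 462 in those of the Mir34a_Mye_KO library (0.111 per 10000), and hence does not check the labels.

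Most members were read chiefly in T cells. In both libraries 6 of the 10 had their highest level there (Gzma, Gzmk, Prf1, Ifng, Nkg7 and Fasl), where 6.48% of the 16733 genes compared were highest in T cells in both libraries. T cells made up 15.2% and 14.3% of the cells. The share of a member's UMIs that lay in them was not set against that of all genes. It was lowest for Gzmb, at 44.9% and 37.1%, followed by Klrk1 at 51% and 52.3%. The share was highest for Gzma, Ifng and Nkg7, from 82.1% to 90.5%. The exceptions to the T cell order were Gzmb, which was highest in basophils, Klrk1 and Klrd1, which were highest in dendritic cells, and Ncr1, for which mast cells and T cells did not separate.

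**Figure D1:**
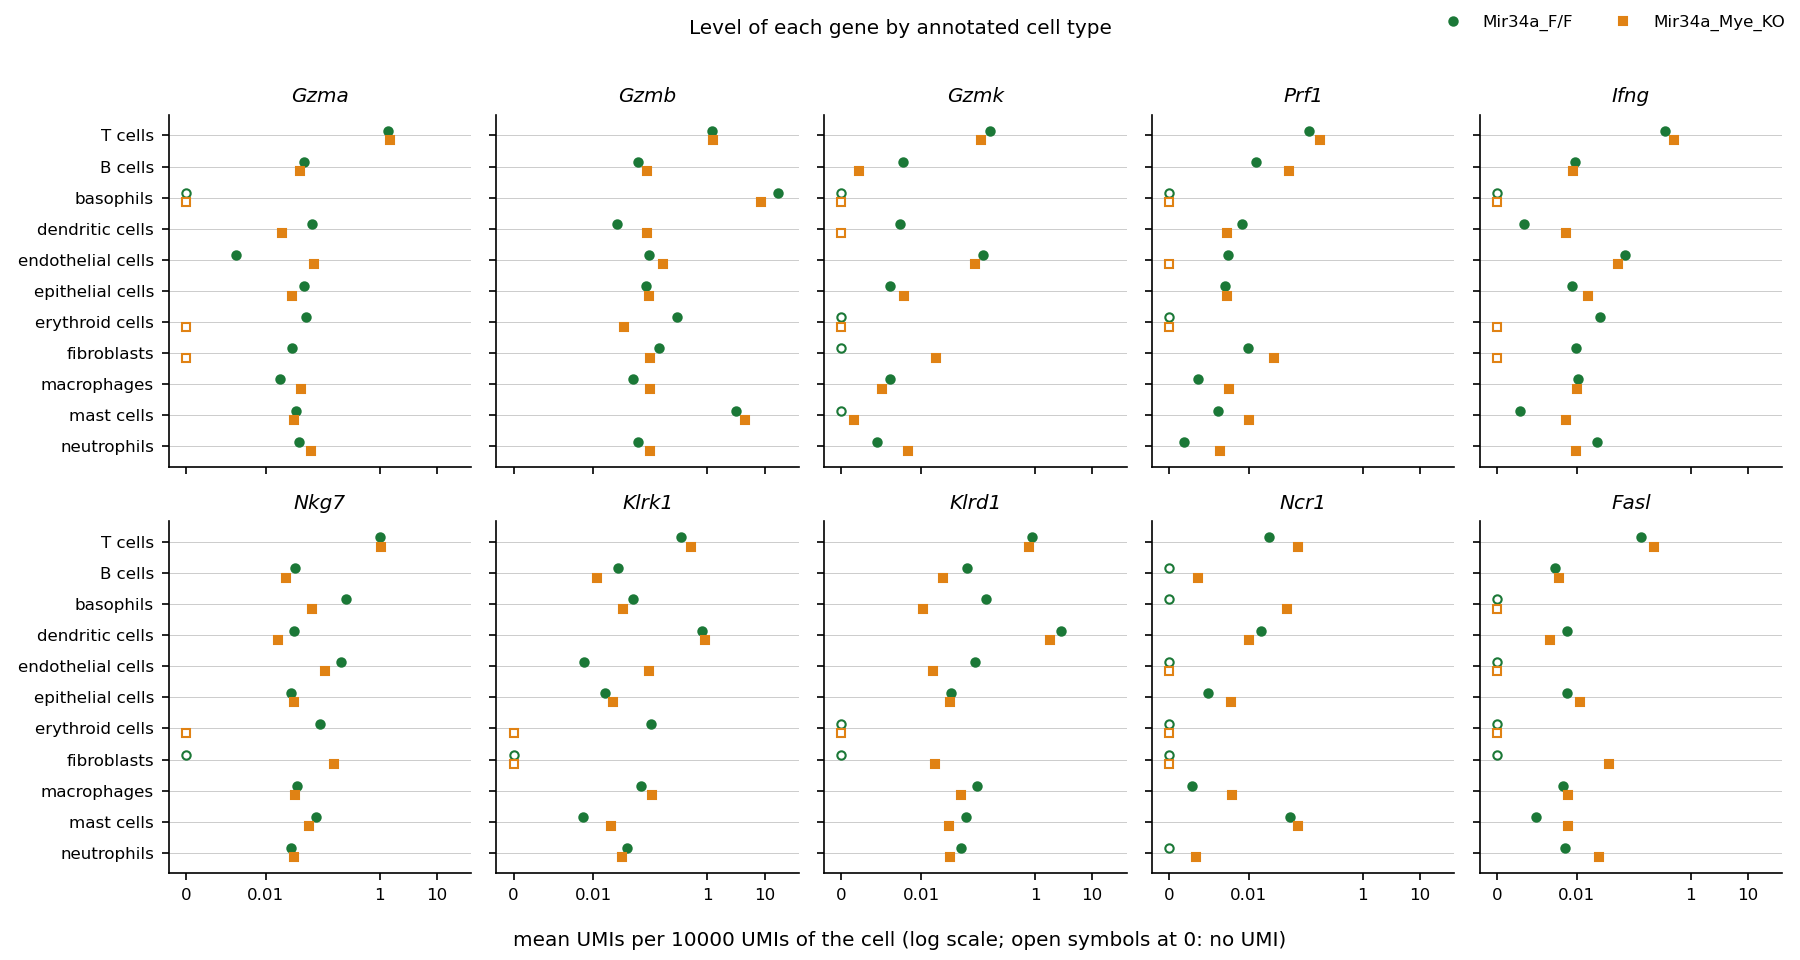
Mean UMIs per 10000 UMIs of the cell (log scale) of each of the 10 genes in each of the 11 annotated cell types, with circles for the Mir34a_F/F library, squares for the Mir34a_Mye_KO library and open symbols for no UMI. Gzmb was highest in basophils (17.3 and 8.54), Klrd1 and Klrk1 in dendritic cells, and Gzma, Gzmk, Prf1, Ifng, Nkg7 and Fasl in T cells.

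Among the granule proteases, Gzma encodes a tryptase of killer lymphocytes. Its level in T cells was 1.4 UMIs per 10000 in the Mir34a_F/F library (2803 UMIs, 95% Poisson interval 2700 to 2909) and 1.49 in the Mir34a_Mye_KO library (5019 UMIs, 4881 to 5160). The next cell types, neutrophils (0.0392 and 0.0631) and B cells (0.0467 and 0.0401), lay far below and did not separate from each other or from dendritic cells. Before thinning 4.73% and 6.49% of T cells held a Gzma UMI. After thinning, 2.46% (74 of 3004, 95% exact binomial interval 1.94% to 3.08%) and 3.29% (87 of 2642, 2.65% to 4.05%) of T cells held a Gzma UMI, against 0.373% and 0.33% of epithelial cells, which should lack it and whose median depths were 5315.5 and 6623 UMIs. Few cells carried the transcript. The single highest T cell held 454 of the 2803 UMIs (16.2%) in the first library and 890 of the 5019 (17.7%) in the second, and 6 and 9 cells were enough to reach 50% of the total.

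Gzmb, the granzyme that cleaves caspases, was spread over more T cells. Its level there was 1.2 UMIs per 10000 (1777 UMIs) in the Mir34a_F/F library and 1.26 (3593 UMIs) in the Mir34a_Mye_KO library, and 62 and 67 cells reached 50% of the UMIs. Of all T cells 15.4% and 22.5% held a Gzmb UMI, and of the thinned T cells 6.82% and 8.25% did, against 0.619% and 0.958% of epithelial cells. Gzmk, a granzyme of early memory CD8 T cells, had 0.162 UMIs per 10000 (172 UMIs) in T cells of the first library and 0.114 (221 UMIs) in those of the second, with 1.36% and 0.946% of thinned T cells positive (3.24% and 3.85% with all UMIs) against 0.0182% and 0.0515% of thinned epithelial cells.

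The only cell type near T cells for Gzmk was endothelial cells (0.124 and 0.089 UMIs per 10000), and the 2 types did not separate across libraries. These endothelial values rested on 14 UMIs in each library, and 12 of the 14 in the Mir34a_F/F library and 14 of the 14 in the Mir34a_Mye_KO library lay in the 14 and 15 endothelial cells that held a UMI of Esm1, an endothelial tip cell gene that the longest Gzmk transcript spans on the opposite strand. Without those cells the endothelial level was 0.0441 and 0. In T cells 19 to 22 cells per library held an Esm1 UMI, 0.712% and 0.717% of them, and they held 15 of the 172 and 50 of the 221 Gzmk UMIs (8.72% and 22.6%). Leaving them out gave Gzmk levels of 0.149 and 0.0887 in T cells. Whether the counting assigned reads of one gene to the other was not tested.

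Prf1, which encodes the pore-forming perforin, had a level of 0.114 UMIs per 10000 (140 UMIs) in T cells of the Mir34a_F/F library and 0.178 (437 UMIs) in those of the Mir34a_Mye_KO library. B cells came next (0.0132 and 0.0497, from 14 and 128 UMIs), below T cells in both libraries. Thinned T cells with a Prf1 UMI made up 0.766% and 1.1% (2.91% and 5.93% with all UMIs), against 0.0091% and 0.0309% of epithelial cells.

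Ifng had 0.353 UMIs per 10000 (585 UMIs) in T cells of the Mir34a_F/F library and 0.51 (1318 UMIs) in those of the Mir34a_Mye_KO library. Endothelial cells followed at 0.0703 and 0.0524, from only 3 and 6 UMIs. Thinned T cells held an Ifng UMI in 2.2% and 3.48% of cases (5.89% and 10.7% with all UMIs), against 0.0546% and 0.185% of epithelial cells, and the top T cell held 12.1% and 4.4% of the UMIs. The Ifng gene overlaps Gm49751 on the same strand, and 19.9% of its transcript 50-mers also occur in that gene, for which the table has no row. The other 9 members shared no 50-mer with an overlapping gene.

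Nkg7, a granule membrane protein needed for full degranulation, had 1.02 UMIs per 10000 (1683 UMIs) and 1.06 (3093 UMIs) in T cells of the 2 libraries. It was detected in 6.72% and 7.23% of thinned T cells (16.3% and 22.3% with all UMIs), against 0.191% and 0.309% of epithelial cells. Basophils (0.256 and 0.0658) and endothelial cells (0.21 and 0.11) came next with 2 to 9 UMIs each and did not separate. Fasl, the ligand of the death receptor Fas, had 0.137 UMIs per 10000 (168 UMIs) and 0.227 (542 UMIs) in T cells, with 1.79% and 1.29% of its UMIs in the top cell. It was found in 1.3% and 2.2% of thinned T cells (4.53% and 12.7% with all UMIs), against 0.0546% and 0.103% of epithelial cells.

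Of the receptor genes, Klrk1, which encodes the activating receptor NKG2D, had 0.349 UMIs per 10000 (487 UMIs) and 0.52 (1318 UMIs) in T cells of the Mir34a_F/F and Mir34a_Mye_KO libraries. Klrd1, which encodes CD94, the partner of the NKG2 chains, had 0.885 (1589 UMIs) and 0.78 (2377 UMIs). Klrk1 was found in 2.9% and 3.56% of thinned T cells (8.06% and 14.2% with all UMIs) and Klrd1 in 6.92% and 5.9% (15.3% and 20.5%), against 0.118% to 0.289% of thinned epithelial cells for either gene. Both were higher in dendritic cells, Klrk1 at 0.813 and 0.902 and Klrd1 at 2.83 and 1.83. Ncr1, which encodes the natural killer receptor NKp46, was the rarest member in T cells, with 41 UMIs in 29 cells (0.023 per 10000) and 221 UMIs in 84 cells (0.0738 per 10000). Mast cells had Ncr1 at 0.0518 (21 UMIs) and 0.0723 (93 UMIs), above T cells in the first library and level with them in the second.

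The members were divided in different proportions among groups of T cells. T cells were placed in 5 groups, each cell in the first that applied, by a UMI of Cd8b1 (123 and 133 cells in the Mir34a_F/F and Mir34a_Mye_KO libraries), the gamma-delta receptor gene Trdc (205 and 202), the regulatory T cell factor Foxp3 (453 and 565), Cd4 (592 and 746) or none of these (1715 and 1003). The last group includes cells in which a marker transcript was simply not captured, and deeper cells are placed more readily, so the groups differ in depth between libraries.

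Cells with Trdc held the highest levels of both Gzma and Gzmb among the 5 groups in each library. Their Gzma level was 6.09 UMIs per 10000 in the first library and 6.7 in the second, although 454 of the 953 UMIs and 890 of the 2009 UMIs came from 1 cell each. Their Gzmb level was 5.16 and 3.29, with 27.1% and 23.4% of all T cell Gzmb UMIs in 205 and 202 cells. Gzmk was nearly absent there, with 2 and 5 UMIs, and Klrk1 stood at 1.18 and 1.36, above the other 4 groups in both libraries.

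In Foxp3 cells the granzymes parted. Gzmb had 1.47 UMIs per 10000 (328 UMIs) in the Mir34a_F/F library and 2.06 (1231 UMIs) in the Mir34a_Mye_KO library, 18.5% and 34.3% of its T cell UMIs. Gzma stood at 0.112 (21 UMIs) and 0.456 (469 UMIs, of which 353 came from 1 cell), so that these cells held 15.6 and 2.62 Gzmb UMIs per Gzma UMI. Prf1 was at 2 and 32 UMIs, and Nkg7 at 0.243 and 0.196 UMIs per 10000, below the other 4 groups in both libraries.

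Cells with Cd4, 592 of the 3088 and 746 of the 2649 T cells, held 31.3% and 29.6% of the T cell Ifng UMIs. In the Mir34a_F/F library their Ifng level was 0.409, against 0.353 in all T cells. In the Mir34a_Mye_KO library it was 0.454, against 0.51. They held 22.6% and 32.8% of the T cell Fasl UMIs. Cells with none of the 4 markers, 1715 and 1003 in number, held most of the Prf1 UMIs (67.1% and 66.8%) and most of the Ncr1 UMIs (75.6% and 77.4%). Ncr1 was at 0 UMIs in the Cd8b1 cells of the Mir34a_F/F library and at 1 in those of the Mir34a_Mye_KO library.

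**Figure D2:**
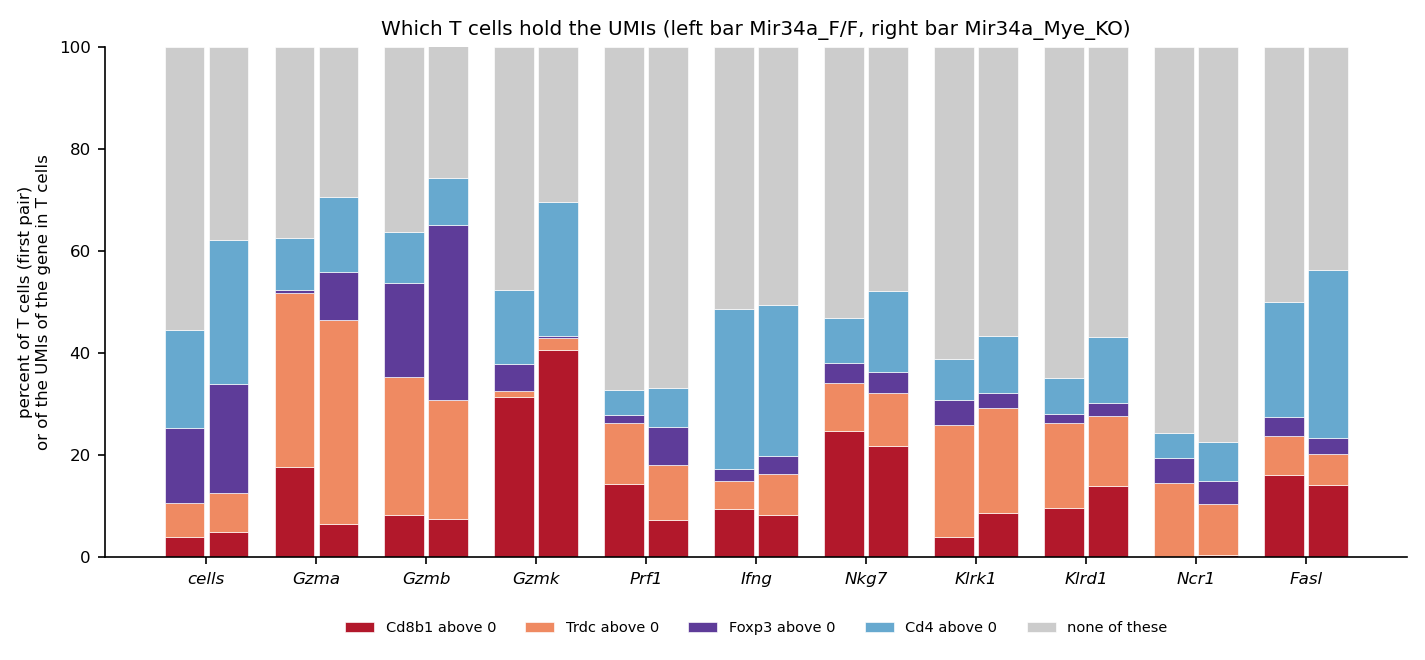
Percent of T cells (first pair of bars) and of the T cell UMIs of each gene held by 5 disjoint groups of T cells, with the left bar of a pair for the Mir34a_F/F library and the right for the Mir34a_Mye_KO library. Cells with Trdc held 34% and 40% of the Gzma UMIs, Foxp3 cells 18.5% and 34.3% of the Gzmb UMIs, and cells with none of the 4 markers 75.6% and 77.4% of the Ncr1 UMIs.

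Markers of natural killer cells, called killer markers here (Klrb1c, Klre1, Eomes, Klra4, Klra7, Klra8, Klra9, Klri2), were detected within the annotated T cells, all 8 in both libraries, from 29 UMIs (Klra8) to 217 (Eomes) in the Mir34a_F/F library and from 107 (Klra8) to 658 (Klra7) in the Mir34a_Mye_KO library. Only 21 and 18 T cells had such a marker and no UMI of Cd3d, Cd3e, Cd3g, Trac, Trbc1, Trbc2 or Trdc. Their Prf1 level was 3.19 and 4.3 UMIs per 10000 and their Gzma level 7.44 and 14.4, and they held 12.9% and 11% of the T cell Prf1 UMIs. Some of these markers are also carried by CD8 T cells. In cells with and without Cd8b1, Eomes was at 0.994 and 0.152 in the Mir34a_F/F library and at 0.641 and 0.12 in the Mir34a_Mye_KO library, and Klre1 at 0.325 and 0.0981, then 0.304 and 0.179. Cells with both a receptor UMI and a killer marker, 308 and 358 in number, can therefore include CD8 T cells, and held 55.7% and 70.3% of the Prf1 UMIs and 75.6% and 85.1% of the Ncr1 UMIs. The part of natural killer cells in the member levels of the annotated T cells was not tested beyond these counts.

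Cells with a Cd8b1 UMI were 3.98% of T cells in the Mir34a_F/F library and 5.02% in the Mir34a_Mye_KO library, but 1.8% and 1.21% after thinning to 1000 UMIs, so no order of the libraries is read from it. Their median depths were 4477 and 9092 UMIs, against 3517 and 7921 in T cells without. Epithelial markers summed to 15.8 and 8.73 UMIs per 10000 with Cd8b1 and to 21.2 and 11.7 without, and T cell markers to 31.8 and 26.3 with it and 19.4 and 18.5 without. The part of these in the differences was not tested. Of the 9 members with enough UMIs (at least 50 in T cells of each library), 5 were at least 2-fold higher in the Cd8b1 cells in both libraries: Gzmk, Ifng, Nkg7, Klrd1 and Fasl. The ratios of Gzmk, Nkg7 and Klrd1 stayed past 2-fold in both libraries under each alternative that gave one, while those of Ifng and Fasl did not. Over all 11763 genes compared, 70 (0.595%) were at least 2-fold higher in both libraries and 492 (4.18%) at least 2-fold lower, or 429 (3.65%) when a group with no UMI is set at a floor of 3 counts, and none of the 9 members was among the lower genes. The median log2 ratio of the 9 members was 1.86 in the Mir34a_F/F library and 1.03 in the Mir34a_Mye_KO library, against -0.14 and -0.05 over all genes compared.

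Nkg7 and Gzmk had the largest ratios. Nkg7 was at 6.42 UMIs per 10000 with Cd8b1 and 0.792 without in the Mir34a_F/F library, and at 4.81 and 0.863 in the Mir34a_Mye_KO library. These are 8.1-fold (log2 ratio 3.02, 95% counting interval 2.83 to 3.20) and 5.58-fold (2.48, 2.34 to 2.62). Of the thinned cells with Cd8b1 34.1% and 27.8% held an Nkg7 UMI, against 5.55% and 6.14% of those without. Gzmk was at 1.03 with Cd8b1 and 0.126 without in the first library and at 0.77 and 0.0797 in the second, 8.2-fold and 9.65-fold. Cells with Cd8b1 held 54 of the 172 and 90 of the 221 Gzmk UMIs in T cells.

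Klrd1 was at 2.23 UMIs per 10000 with Cd8b1 and 0.83 without in the Mir34a_F/F library and at 2.37 and 0.696 in the Mir34a_Mye_KO library, with log2 ratios of 1.43 (1.15 to 1.69) and 1.77 (1.58 to 1.95). For Fasl the levels were 0.451 and 0.124 in the first library and 0.574 and 0.209 in the second, with log2 ratios of 1.86 (1.11 to 2.55) and 1.46 (1.05 to 1.85), the latter 0.78 (-0.90 to 2.09) with every cell thinned to 1000 UMIs. Ifng was at 0.95 and 0.328 in the first library and 0.99 and 0.485 in the second, with log2 ratios of 1.53 and 1.03, but 42 of the 110 Ifng UMIs with Cd8b1 in the Mir34a_Mye_KO library lay in 1 cell. There the ratio without that cell was 0.22 (-0.19 to 0.60), and it was -0.18 when Cd8b1 was called after thinning every cell to 1000 UMIs, a setting that gave 0.46 (-0.62 to 1.36) in the Mir34a_F/F library.

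The remaining members did not separate 2-fold in both libraries. Gzma was at 5.4 with Cd8b1 and 1.23 without in the Mir34a_F/F library, a log2 ratio of 2.13, and at 2.73 and 1.42 in the Mir34a_Mye_KO library, a log2 ratio of 0.94. It rested on few cells, since 214 of the 495 UMIs and 116 of the 328 UMIs with Cd8b1 came from 1 cell each, and the ratio in the Mir34a_Mye_KO library was -1.78 when Cd8b1 was called after thinning. With T cells split by Cd8a instead, the ratios were 3.80 and 1.85, past 2-fold in both libraries. Gzmb was at 1.98 and 1.16 in the first library and 1.92 and 1.23 in the second (log2 ratios 0.77 and 0.65), and Prf1 at 0.394 and 0.102, then 0.277 and 0.173 (1.94 and 0.68). Klrk1 was at 0.239 and 0.354 in the Mir34a_F/F library (-0.57, -1.37 to 0.13, and 0.56 when T cells were split by Cd8a), so that no direction was held there, and at 0.921 and 0.499 in the Mir34a_Mye_KO library (0.89, 0.58 to 1.18). Ncr1 had 0 UMIs in 123 cells with Cd8b1 in the Mir34a_F/F library. By the floor of 3 counts this allows up to 2.44% of cells with a captured UMI and a level of up to 0.0441. That level is above the 0.024 of cells without Cd8b1, so a difference was not detectable at this depth. In the Mir34a_Mye_KO library Ncr1 had 1 UMI with Cd8b1 and 220 without (log2 ratio -2.55, -7.87 to -0.06).

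**Figure D3:**
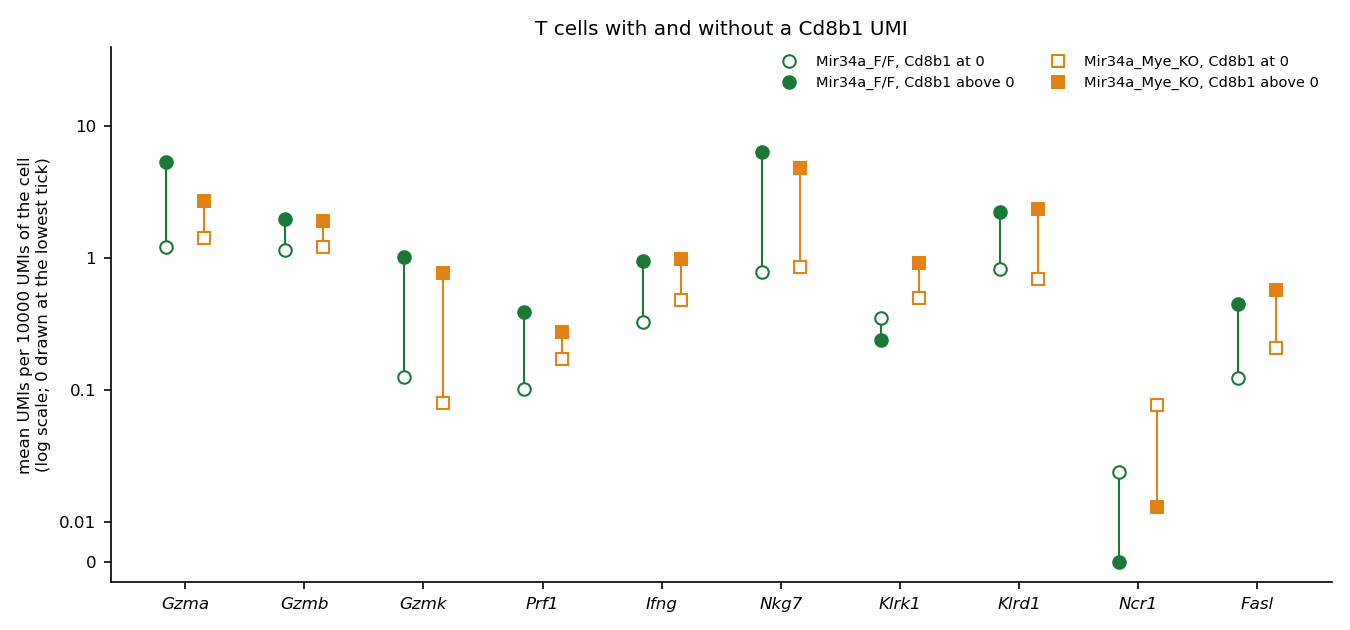
Mean UMIs per 10000 UMIs of the cell (log scale) in T cells with a Cd8b1 UMI (filled) and without (open) for each gene, with circles for the Mir34a_F/F library and squares for the Mir34a_Mye_KO library. Nkg7 (6.42 against 0.792 and 4.81 against 0.863) and Gzmk rise the most with Cd8b1. Ncr1 lies lower with Cd8b1, where it had 0 UMIs in the first library and 1 in the second. Klrk1 has the lower level with Cd8b1 in the first library (-0.57, with an interval that spans 0) and the higher in the second.

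Genes that work with the members were read in the same 2 parts of the T cells, from 7 lists of 48 genes in all. Of 6 transcription factors, Tbx21 and Eomes, which direct the effector programme, were at least 2-fold higher with Cd8b1 in both libraries, and Zeb2 was at least 2-fold lower. Eomes stood at 0.994 against 0.152 in the Mir34a_F/F library and at 0.641 against 0.12 in the Mir34a_Mye_KO library, and the median log2 ratio over the list was 0.03 in both. Of 9 receptor and adaptor genes, Klrc1 and Slamf7 were higher and Klrb1c lower, with list medians of 1.02 and 0.84. Klrb1c, the gene of the natural killer antigen NK1.1, had 0 UMIs with Cd8b1 and 115 without in the Mir34a_F/F library, where the call rests on the floor of 3 counts (0.0441 against 0.0944), and 6 and 285 UMIs in the Mir34a_Mye_KO library. Klrc1 encodes NKG2A, which pairs with CD94, and was at 0.906 against 0.299 and 1.17 against 0.313. Hcst, which encodes the adaptor of NKG2D, was at 4.85 against 2.35 and 3.59 against 1.97.

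Of 9 granule loading and release genes 7 passed 2-fold in neither direction. Ctsw, which encodes a cysteine protease of killer lymphocytes, was at least 2-fold higher in both libraries (1.34 against 0.494 and 1.35 against 0.588), Stx11 was lower (0.857 against 2.23 and 1.29 against 3), and the list medians were -0.18 and -0.24. Of 5 chemokine and cytokine genes 1 was higher, Ccl5, at 61.5 against 5.45 UMIs per 10000 and 33.7 against 4.64, with list medians of 0.30 and -0.31. The single related granzyme with enough UMIs, Gzmc, was lower with Cd8b1, at 0.128 (12 UMIs) against 0.336 (1026 UMIs) and 0.0236 (4 UMIs) against 0.447 (2162 UMIs), a log2 ratio of -1.40 and -4.24. Gzmm, with 41 T cell UMIs in the Mir34a_F/F library, fell short of the 50 required in each library. Its levels went the other way, at 0.152 (9 UMIs) against 0.0288 (32 UMIs) and 0.162 (22 UMIs) against 0.0193 (38 UMIs). Gzmd, Gzme and Gzmf had no UMI with Cd8b1 in either library. None of the 6 ligand and receptor genes and none of the 3 granzyme inhibitor genes was 2-fold apart in the same direction in both libraries, with list medians of -0.02 and 0.14 for the former and 1.31 and 0.50 for the latter.

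Between the libraries, T cell levels of the members differed little for the abundant genes and more for the rare ones. Of the 10 members 1, Ncr1, was at least 2-fold apart, where 526 of 13990 genes (3.76%) were. Genes with at least 50 UMIs over both libraries were compared. The median log2 ratio of the members, Mir34a_Mye_KO over Mir34a_F/F, was 0.31, against -0.13 over all genes compared. Ncr1 was at 0.023 UMIs per 10000 in the library labelled Mir34a_F/F and 0.0738 in the library labelled Mir34a_Mye_KO, a 3.2-fold difference (log2 ratio 1.68, 1.09 to 2.32). With 0.1 added to each level, which is more than either, the ratio was 0.50 (-0.09 to 1.14). Leaving out the 21 and 18 cells with a killer marker and no receptor UMI gave 1.75. T cells without a receptor UMI held only 2 of the 41 and 7 of the 221 Ncr1 UMIs, so this could move the ratio little. Cells with both a killer marker and a receptor UMI stayed in.

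Smaller library differences, which no replicate checks, were positive for Fasl at 0.73 (0.42 to 1.04), Prf1 at 0.65 (0.34 to 0.96), Klrk1 at 0.57 (0.39 to 0.75), Ifng at 0.53 (0.37 to 0.69) and Gzma at 0.09 (0.01 to 0.17), which was -0.05 (-0.26 to 0.15) after thinning. They were negative for Gzmk at -0.50 (-0.82 to -0.18) and Klrd1 at -0.18 (-0.30 to -0.07). The intervals of Gzmb at 0.08 (-0.02 to 0.17) and Nkg7 at 0.06 (-0.03 to 0.16) spanned 0. The killer marker genes moved with the libraries in the same cells: Klra7 was at 0.104 and 0.201 UMIs per 10000, Klra4 at 0.0227 and 0.0753, Klre1 at 0.107 and 0.186, and Eomes at 0.185 and 0.146. Markers of other cell types moved in T cells too, in summed levels: from 20.9 to 11.5 for epithelial cells, 8.8 to 4.82 for neutrophils, 2.48 to 0.0913 for erythroid cells and 2.13 to 4.85 for B cells. Those of dendritic cells, where Klrk1 and Klrd1 were highest, went from 0.434 to 0.623 in T cells, against 3.88 and 4.56 in dendritic cells. The median mitochondrial share of T cells was 1.9% and 3.3%. The part of all these in the library differences was not tested. Fewer cells of a kind and less mRNA per cell cannot be told apart in such group means.

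In cells with Cd8b1, 1 of 9 members was at least 2-fold apart (Klrk1), where 291 of 5789 genes (5.03%) were, and the median log2 ratio was -0.05 against 0.06 over all genes. Klrk1 was at 0.239 (19 UMIs in 9 of 123 cells) in the Mir34a_F/F library and at 0.921 (115 UMIs in 31 of 133 cells) in the Mir34a_Mye_KO library, a log2 ratio of 1.95 (1.20 to 2.78). After thinning, 0 of 123 cells, which by the floor of 3 counts allows a share of up to 2.44%, and 8 of 133 of these cells held a Klrk1 UMI. Gzma at -0.98 (-1.20 to -0.76) and Nkg7 at -0.41 (-0.61 to -0.21) were lower in the Mir34a_Mye_KO library. With UMIs summed over the cells Gzma was at -1.71, and without its top cell at -1.13. In each of these settings 2 members (Klrk1 and Gzma) were 2-fold apart. With thinned cells 0 were, but Klrk1, with 0 UMIs in the Mir34a_F/F library, then had no ratio. Markers of other T cells moved in the same cells: Foxp3 was at 0.0487 (6 UMIs) and 0.368 (56 UMIs) and Cd4 at 0.1 (9 UMIs) and 0.389 (70 UMIs), while Cd8a was at 2.11 and 1.86. Their part in the library differences of Klrk1, Gzma and Nkg7 was not tested. In cells without Cd8b1, 1 of 10 members was at least 2-fold apart (Ncr1, 1.68), where 536 of 13878 genes (3.86%) were. The median there was 0.35 against -0.13, and Gzma at 0.21 (0.12 to 0.30) and Nkg7 at 0.12 lay above 0. Over the alternatives this Gzma ratio ran from 0.05, which is below its interval, to 0.25.

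**Figure D4:**
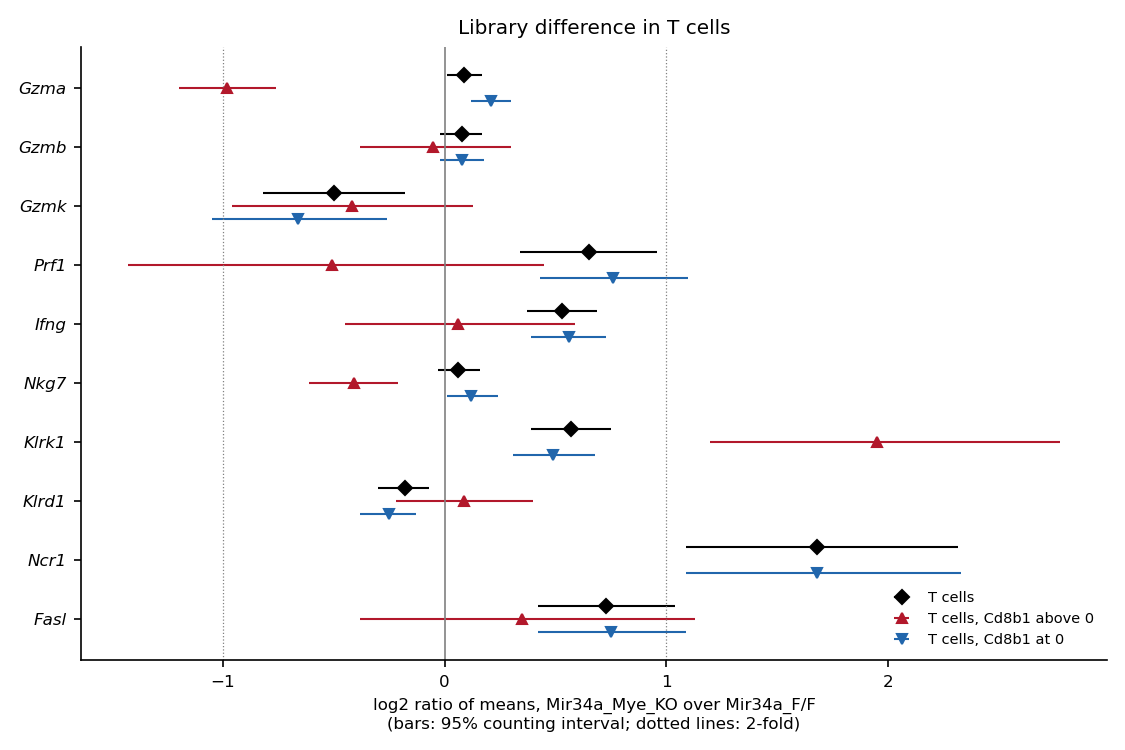
Log2 ratio of mean levels, Mir34a_Mye_KO over Mir34a_F/F, for each gene in all T cells (diamonds), T cells with Cd8b1 (upward triangles) and T cells without (downward triangles), with bars for the 95% counting interval and dotted lines at 2-fold. Ncr1 (1.68) and, in cells with Cd8b1, Klrk1 (1.95) lie past 2-fold, and Gzma in cells with Cd8b1 lies at -0.98.

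Outside T cells, each member was set against CD3 transcripts (Cd3d, Cd3e and Cd3g summed), to give how far it departed from the proportion in T cells. For Gzmb that proportion was 12 UMIs per 100 CD3 UMIs in T cells of the Mir34a_F/F library and 14.7 in those of the Mir34a_Mye_KO library. Basophils had 3222 and 1291, from 290 and 284 Gzmb UMIs beside 9 and 22 CD3 UMIs, and mast cells 1050 and 2415, from 1207 and 4612 Gzmb UMIs. These are 87.3 to 268 times the T cell proportion, against 2.53 and 3.08 times in epithelial cells, 1.03 and 1.87 times in macrophages and 1.17 and 1.53 times in neutrophils. In cells with no T cell receptor or CD3 UMI the Gzmb level was 17.3 and 9.74 UMIs per 10000 in basophils and 3.14 and 4.65 in mast cells. Gzmb was detected in 50% and 42.5% of thinned basophils and 17.3% and 18.4% of thinned mast cells.

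The Gzmb level of basophils was 17.3 UMIs per 10000 in 48 cells of the Mir34a_F/F library and 8.54 in 40 cells of the Mir34a_Mye_KO library (log2 ratio -1.02, -1.29 to -0.74). Mast cells went the other way, with 3.2 and 4.56 (0.51, 0.39 to 0.63). The markers used here to split cell types were chosen after the levels had been seen. Basophils with a UMI of Mcpt8, a basophil protease, held Gzmb at 22.7 and 16.1 against 11.3 and 2.98 without. Mast cells with Cma1 or Tpsb2, genes of the connective tissue type of mast cell, held 3.54 and 4.96 against 2.42 and 2.5 without, where 139 of the 397 UMIs and 225 of the 438 UMIs came from 1 cell each.

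Klrk1 and Klrd1 in dendritic cells also stood far above the T cell proportion. Klrd1 stood at 1254 and 1241 UMIs per 100 CD3 UMIs in dendritic cells, 117 and 127 times the T cell proportion, and Klrk1 at 382 and 661, which is 116 and 122 times. Dendritic cells with no T cell receptor or CD3 UMI were 272 of 347 and 348 of 431, held 75.2% and 81.8% of the Klrd1 UMIs found in dendritic cells and had a Klrd1 level of 2.86 and 1.91. Dendritic cells with a UMI of Cd209a, a gene of monocyte-derived and type 2 dendritic cells, held Klrd1 at 5.08 and 3.53 UMIs per 10000 against 2.37 and 1.28 without, and those with Xcr1 or Clec9a, genes of the cross-presenting type, held 1.51 and 1.45 against 3.36 and 2.05. Klrk1 varied less with the same markers, at 0.858 and 1.17 with Cd209a and 0.803 and 0.817 without.

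Between libraries Klrd1 in dendritic cells had a log2 ratio of -0.63 (-0.78 to -0.47) and Klrk1 of 0.15 (-0.12 to 0.43). Macrophages held Klrk1 at 0.0681 (98 UMIs) and 0.107 (374 UMIs), which is 4.54 and 7.3 times the T cell proportion to CD3. Macrophages with a UMI of Flt3 or Zbtb46, dendritic cell genes, had 0.474 and 0.299 against 0.0475 and 0.0916 in the others.

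Nearly all mast cells also held a UMI of Mcpt1 or Mcpt2, proteases of the mucosal type of mast cell (696 of 732 and 777 of 785). Those cells held 1198 of the 1207 and 4375 of the 4612 mast cell Gzmb UMIs and all 21 and 93 of the Ncr1 UMIs. In the Mir34a_Mye_KO library the 8 cells without either held 237 Gzmb UMIs, 234 of them in 1 cell. Mast cell markers, Mcpt1 and Mcpt2 among them, also summed to 7.62 and 8.34 UMIs per 10000 in T cells. A single UMI of either therefore does not mark the type of a cell.

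Ncr1 in mast cells stood at 18.3 and 48.7 UMIs per 100 CD3 UMIs, 65.8 and 53.7 times the T cell proportion. Of its 21 and 93 mast cell UMIs 61.9% and 69.9% lay in cells with no T cell receptor or CD3 UMI, which were 609 of the 732 and 619 of the 785 mast cells. The level in those cells was 0.0435 and 0.0688, and no mast cell held more than 4 Ncr1 UMIs. Mast cells with Cma1 or Tpsb2 had Ncr1 at 0.0622 (19 UMIs) and 0.0842 (92 UMIs), and those without had 2 and 1 UMIs in 224 and 127 shallower cells. Thinning left a UMI of Ncr1 in 0.401% and 1.22% of the former and in 0.535% (1 cell) and 0% of the latter, against 0.0091% and 0.0618% of epithelial cells. Prf1 in B cells, at 14 and 128 UMIs, was 5.43 and 13.7 times the T cell proportion to CD3, in cells whose median depths were 3664 and 20852 UMIs.

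**Figure D5:**
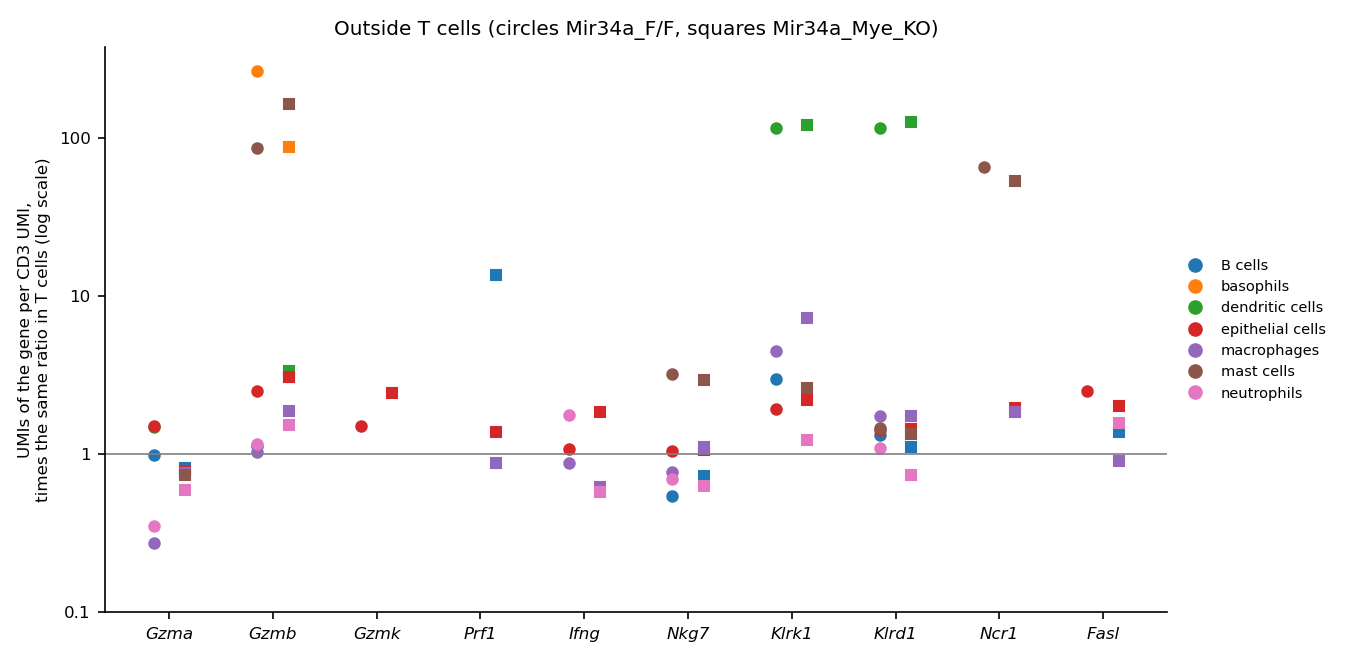
UMIs of each gene per CD3 UMI in cell types other than T cells, as a multiple of the same ratio in T cells (log scale), for types with at least 15 UMIs of the gene, with circles for the Mir34a_F/F library and squares for the Mir34a_Mye_KO library. Gzmb in basophils and mast cells (87.3 to 268 times), Klrk1 and Klrd1 in dendritic cells (116 to 127 times) and Ncr1 in mast cells (53.7 and 65.8 times) stand far above 1.

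Partner genes of the members had their own distribution. Fas, the receptor of Fas ligand, was highest in neutrophils (1.86 and 1.93 UMIs per 10000), and T cells held 0.561 and 0.524. The interferon gamma receptor chain Ifngr1 was highest in T cells (4.46 and 6.14). The other chain, Ifngr2, was at 1.15 and 1.14 in dendritic cells and 1.18 and 1.09 in macrophages, against 0.694 and 0.527 in T cells. The granzyme B inhibitor gene Serpinb9 was highest in dendritic cells (2.2 and 2.28), with 0.721 and 0.861 in T cells. The Klrk1 ligand gene Raet1e was highest in T cells (1.2 and 1.39). Of the other listed ligand genes of Klrk1, by the mean of the libraries, Ulbp1 was highest in mast cells (0.11 and 0.141). Mast cells were highest in neither library alone. Endothelial cells stood at 0.128 (11 UMIs) in the Mir34a_F/F library and fibroblasts at 0.167 (10 UMIs) in the Mir34a_Mye_KO library. By the same mean Raet1d was highest in macrophages, H60c in epithelial cells and H60b in T cells. For H60c and H60b this did not hold in each library. In the Mir34a_Mye_KO library H60c was at 0.00536 in epithelial cells and 0.00761 in endothelial cells (2 UMIs). In the Mir34a_F/F library H60b was at 0.0336 in T cells and 0.0346 in basophils (1 UMI).

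How many members a T cell held depended on depth. After thinning, 77.6% and 75.1% of T cells had no UMI of any of the 10, and 2.03% (61 of 3004) and 2.54% (67 of 2642) had UMIs of 3 or more. With Cd8b1 the share with 3 or more was 14.6% (18 of 123, 8.91% to 22.1%) and 5.26% (7 of 133, 2.14% to 10.5%), and without it 1.49% and 2.39%. With all UMIs 59.3% and 46.6% of T cells had no member and 9.72% and 16.7% had 3 or more, which was 47.2% and 57.9% with Cd8b1 and 8.16% and 14.5% without. The order of the libraries in cells with Cd8b1 thus turned with thinning and is not read. In both counts cells with Cd8b1 had the higher share. After thinning, Gzmb was found in 39.2% of the 74 Gzma-positive T cells of the Mir34a_F/F library and in 6.01% of the others, and in the Mir34a_Mye_KO library in 35.6% and 7.32%. Gzma was found in 9 of 23 Prf1-positive T cells of the Mir34a_F/F library (39.1%, 19.7% to 61.5%) and in 13 of 29 of the Mir34a_Mye_KO library (44.8%, 26.4% to 64.3%), against 2.18% and 2.83% of the others.

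Over 24 groups, which are 10 cell types and the 2 parts of the T cells in each library, the members were set against each other and against other genes. The groups share libraries and depth, so Pearson correlations of log2 levels are given as a description only. Gzma correlated with Ifng at 0.97, Prf1 at 0.96 and Fasl at 0.96, but with Gzmb at 0.32, and Klrk1 with Klrd1 at 0.91. Outside T cells every level of Gzma, Ifng, Prf1 and Fasl lay below the 0.1 added before the log. The correlations among these genes therefore reflect chiefly T cells against the other types, as for any gene confined to T cells. Among other genes, the pattern most like Gzmb was that of Sytl3 (0.95), the pattern most like Gzmk that of Eomes (0.94) and the pattern most like Nkg7 that of Ctsw (0.96). Klrk1 was most like Map3k14 (0.93) and Klrd1 most like Klri2 (0.95), and Ncr1 most like Ppp1r14c (0.87). Gzma was most like Gm20069 (0.99), Prf1 and Ifng most like Traj27 (0.97 and 0.98), and Fasl most like Gm14029 (0.99).

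The members lie on 6 chromosomes (GENCODE vM21, GRCm38). Gzma (chr13:113093825-113100981) and Gzmk (chr13:113171608-113225908) lie on the same chromosome, as do Klrd1 (chr6:129591782-129598775) and Klrk1 (chr6:129610323-129623864), while Prf1 (chr10:61297833-61304680) and Ifng (chr10:118441046-118445892) are on another. Gzmb is at chr14:56258838-56262260, Fasl at chr1:161780689-161788495, Nkg7 at chr7:43437073-43438249 and Ncr1 at chr7:4337724-4345164. The promoters of 4 granule genes are shown because Gzmb was highest outside T cells, Gzma was highest in T cells with Trdc, and Gzmk and Nkg7 had the largest Cd8b1 ratios, each reading 5′ to 3′ along the gene from 250 bases before its RefSeq start to 50 after (GRCm38.p6). RefSeq starts need not match the GENCODE spans above: that of Gzmk lies inside its span, and the Gzmb window lies wholly upstream of its span. Capitals mark matches, on either strand, to the letters TGTGGT (Runx), GGTGTG (T-box) or TGANTCA (AP-1), and no matches overlapped.

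Gzma promoter, chr13:113100932-113101231, minus strand: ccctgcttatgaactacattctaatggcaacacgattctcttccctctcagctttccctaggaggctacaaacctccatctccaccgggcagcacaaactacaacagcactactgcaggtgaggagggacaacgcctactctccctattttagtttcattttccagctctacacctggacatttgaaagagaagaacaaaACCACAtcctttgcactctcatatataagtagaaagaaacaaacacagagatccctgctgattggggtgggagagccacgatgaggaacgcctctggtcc

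Gzmb promoter, chr14:56262285-56262584, minus strand: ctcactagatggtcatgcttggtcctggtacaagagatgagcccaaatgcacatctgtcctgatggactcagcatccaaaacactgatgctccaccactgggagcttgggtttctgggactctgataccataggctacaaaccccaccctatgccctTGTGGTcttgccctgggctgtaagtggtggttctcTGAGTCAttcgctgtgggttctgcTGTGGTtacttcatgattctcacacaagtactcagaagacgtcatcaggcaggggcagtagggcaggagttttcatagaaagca

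Gzmk promoter, chr13:113180916-113181215, minus strand: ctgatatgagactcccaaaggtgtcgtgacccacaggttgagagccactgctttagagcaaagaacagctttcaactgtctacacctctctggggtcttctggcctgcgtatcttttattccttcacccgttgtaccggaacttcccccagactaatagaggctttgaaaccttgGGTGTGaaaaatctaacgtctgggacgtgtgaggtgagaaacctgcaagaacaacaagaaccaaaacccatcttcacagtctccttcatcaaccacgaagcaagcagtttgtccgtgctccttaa

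Nkg7 promoter, chr7:43436888-43437187, plus strand: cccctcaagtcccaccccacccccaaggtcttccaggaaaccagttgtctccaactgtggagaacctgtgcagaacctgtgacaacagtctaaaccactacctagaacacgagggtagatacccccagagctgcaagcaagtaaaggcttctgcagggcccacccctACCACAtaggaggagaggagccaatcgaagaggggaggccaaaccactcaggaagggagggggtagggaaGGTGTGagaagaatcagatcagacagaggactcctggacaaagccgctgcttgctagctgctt

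RefSeq promoters were matched for 9 of the 10 members, in 10 entries. The Runx letters occurred in 7 of the 10 entries, against 16.8% of all 32851 promoters, the T-box letters in 3 (19% of all), the AP-1 letters in 2 (7.81%), and the Gata letters AGATAA in none (11.2%). Ncr1 has 2 largely overlapping entries, both with Runx letters, so by gene the Runx count is 6 of 9. Gzmb, the member with its highest levels in basophils and mast cells, held 2 Runx matches and 1 AP-1 match. Gzmk held 1 T-box match and no Runx match. A match is a description of the letters and not of binding.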

How the data were processed

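The authors sequenced 2 single-cell libraries (10x Genomics 3′ v3.1, 30000 cells loaded each), aligned them with Cell Ranger 7.2.0 to mm10, removed doublets with Scrublet per the study's methods, and deposited 1 table of natural log values (LogNormalize, per 10000 UMIs) with cell type annotation. Whole UMIs were recovered from the deposited natural log values, with a largest deviation from whole numbers of 1.5e-10. The stated filter is over 200 genes and under 25% mitochondrial UMIs, and 2470 and 4130 deposited cells are at or above 25%; all were kept. No count model was fitted, because each genotype has 1 library. Intervals on UMIs are exact Poisson, on shares exact binomial (Clopper-Pearson), and on ratios exact conditional intervals recentred on the ratio of mean levels, all at 95%. Where a group had no UMI, its limit was set at a floor of 3 counts. On simulated data (2000 genes, 200 changed) the intervals of the T cell library ratio covered 96.2% of unchanged and 98.5% of changed values. Each simulated gene had 1 rate for all T cells of a library, which is what the interval assumes. Spread between cells was not simulated, so this coverage does not extend to genes held by few cells, such as Gzma. All 10 members were named, the other genes by fixed lists, and for each member the 3 genes of at least 200 UMIs with the highest correlation of log2(level + 0.1), of which the first is printed. Members and lists were chosen with earlier results of these data known. Python 3.11.15, numpy 2.4.6, scipy 1.17.1, pandas 2.3.3 and matplotlib 3.10.9 were used. Table columns of other samples numbered 0.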

Additional observations from a re-analysis of the deposited data

Results flagged for a closer look

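Where a member had at least 50 UMIs in each library in both of a pair of cell groups, with the Cd8b1 parts set only against each other, 5 pairs stood out. In these the library ratio of a member (log2, Mir34a_Mye_KO over Mir34a_F/F) had counting intervals on opposite sides of 0. None of these differences was tested, since each genotype has 1 library. Gzma was 0.09 in T cells and -0.67 in epithelial cells, a difference of 0.76. Over the alternatives the epithelial value ran from -1.21 to -0.18, past both ends of its interval (-1.09 to -0.26). Thinned, the T cell value was -0.05 (-0.26 to 0.15), and the signs were then not opposite. Epithelial Gzma stood at 1.52 and 0.79 times its ratio to CD3 transcripts in T cells (Mir34a_F/F first). Within T cells Gzma was 0.21 without Cd8b1 and -0.98 with it, a difference of 1.19. Over the alternatives it ran from 0.05 to 0.25 without Cd8b1 and from -1.71 to -0.91 with it. Nkg7 was 0.12 without Cd8b1 and -0.41 with it, a difference of 0.53. Gzmb was 0.97 in macrophages and -1.02 in basophils, a difference of 1.99, where macrophage Gzmb stood at 1.03 and 1.87 times its ratio to CD3 in T cells. In mast cells Gzmb was 0.51, a difference of 1.53 from basophils.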

How the results depend on the processing

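Among the single values under the alternatives, 425 moved by less than their counting interval, 100 moved by more and 3 with an interval off 0 changed sign. Of the 100, 20 were shares of T cells thinned to 2000 UMIs and 20 were shares with all UMIs, and such shares rise with depth. The 3 sign changes included the Gzma library ratio in T cells with thinned cells (-0.05). The others, with Cd8b1 called after thinning, were the Cd8b1 ratios of Gzma (-1.78) and Ifng (-0.18) in the Mir34a_Mye_KO library. Another 8 values changed sign for ratios whose interval spanned 0. These were the Klrk1 Cd8b1 ratio in the Mir34a_F/F library (0.56 split by Cd8a) and, in cells with Cd8b1, the library ratios of Ifng (down to -0.58), Klrd1 (down to -0.43), Fasl (-0.11) and Gzmb (0.07). The count of members 2-fold apart between libraries fell from 1 to 0 with a pseudocount of 0.1, in all T cells and in those without Cd8b1. In cells with Cd8b1 it was 2 (Klrk1 and Gzma) with summed UMIs or without the top cell. It was 0 with at least 200 UMIs or thinned cells, but Klrk1 was not compared there. Klrk1 had too few UMIs for the former and 0 thinned UMIs in the Mir34a_F/F library. In the 7 alternatives that gave a ratio, its log2 library ratio ran from 1.48 to 2.17. Members higher with Cd8b1 numbered 3 with at least 200 UMIs, where Gzmk and Fasl had too few UMIs to be compared. The median log2 Cd8b1 ratio of the members compared was 1.30 with the pseudocount in the Mir34a_F/F library. In the Mir34a_Mye_KO library it was 0.54 with summed UMIs, 0.67 without the top cell and 1.38 with Cd8b1 called after thinning. Leaving out the top cell, the barcodes found in both libraries or the cells with a killer marker and no receptor UMI was chosen after seeing the data. The causes of these changes were not tested. No paired analysis was possible because each genotype has 1 library, and for the same reason no replicate could be left out. Each library pools 3 mice, so the spread between animals is unknown.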
